A study of Mus musculus with 3 samples.

Results

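Neurotrophins and their receptors were examined as a set of 8 genes, chosen by gene name from the 55401 gene identifiers of the count data. The set held 4 ligand genes (*Bdnf*, *Ntf3*, *Ntf5* and *Gdnf*) and 4 receptor genes (*Ntrk2*, *Ntrk3*, *Ngfr* and *Ret*). All 8 genes passed the filter of a mean count of at least 10 over the libraries, as did 17115 genes in all. The counts came from 3 bulk RNA-Seq libraries of mouse maxillary processes at embryonic day E10.5, the paired outgrowths of the face that form the upper jaw. All embryos were Wnt1cre; Rosa26Dlx2/-, in which Cre removes a stop cassette from a Rosa26CAG-LSL-Dlx2-3xFlag allele and so switches on *Dlx2*. They are called *Dlx2*-overexpressing (OE) replicates 1, 2 and 3 here, numbers that only name them. Cre under *Wnt1* control acts in the neural crest lineage, and ectoderm, endothelium and neurons derived from placodes lie outside that lineage. The RNA samples were independent, and the number of embryos behind each was not given. The wild-type libraries of the study were not analysed here, so every comparison is between OE libraries or between genes, and none between genotypes.

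Neurotrophins are small secreted factors that are made by the tissue a nerve grows into and are taken up by its axons. The trigeminal ganglion, which supplies the face, depends on them for the survival and the branching of its sensory neurons. Trk receptors are tyrosine kinases that each prefer certain ligands, with BDNF and NT-4 (the product of *Ntf5*) binding TrkB from *Ntrk2*, and NT-3 binding mainly TrkC from *Ntrk3*. The p75 receptor from *Ngfr* binds all neurotrophins and their uncleaved precursors, and is also carried by migrating neural crest cells and glia. GDNF belongs to a separate family and signals through the RET kinase, with a GFRα co-receptor anchored in the membrane.

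Neurotrophins are made as precursors, and cleavage after a pair of basic residues frees the mature factor. The stretch of coding sequence around that site is shown for the 3 neurotrophin genes because the mature coding region begins there, and because it lets the 3 sequences be compared where reads of one gene might be taken for another. Each run is 60 bases of a GENCODE M21 transcript on GRCm38, written 5′ to 3′ on the coding strand, with the 4 codons that end in the basic pair in capitals.
Bdnf: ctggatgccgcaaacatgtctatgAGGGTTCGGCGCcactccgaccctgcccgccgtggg
Ntf3: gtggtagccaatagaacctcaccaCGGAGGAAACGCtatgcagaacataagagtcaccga
Ntf5: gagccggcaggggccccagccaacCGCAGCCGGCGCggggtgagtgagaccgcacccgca
These runs lie at chr2:109723757-109723816 (plus strand) for *Bdnf*, chr6:126102062-126102121 (minus strand) for *Ntf3* and chr7:45415647-45415706 (plus strand) for *Ntf5*, each within 1 coding exon. The site was followed by 119 codons in *Bdnf*, 119 in *Ntf3* and 130 in *Ntf5*. The bases on either side of the capitals differed between the genes. Over the mature coding region, 66.8% of aligned bases were identical between *Bdnf* and *Ntf3*, 60.9% between *Bdnf* and *Ntf5* and 62.7% between *Ntf3* and *Ntf5*. The longest run shared by any pair of these coding sequences was 18 bases, against reads of 150 bases. For *Ntrk2* and *Ntrk3* the identity of the coding sequences was 66.2%, with a longest shared run of 23 bases.

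The targeted gene was counted in every library. *Dlx2* had 9089, 7150 and 6890 counts in replicates 1, 2 and 3, a mean of 206 ± 26.7 CPM (SD, n = 3). CPM is the count of a gene after each library is scaled, for its depth and composition, to 1000000 counts. Reads of the transgene and of the endogenous gene were counted together, and with no wild-type level beside them these values do not check the genotype. Counts on genes ranged from 35351031 to 40057435 per library, so that 3 counts, taken as the detection limit, corresponded to 0.0777 to 0.0843 CPM. All 7 mesenchymal markers were counted in every library, and their summed level was 1715, 1728 and 1832 CPM. Replicate 1 stood apart from the others in its markers. The 9 neuronal markers summed to 273, 24.3 and 35.9 CPM in replicates 1, 2 and 3, with all 9 at least 2-fold higher in replicate 1 than in either other library. The 6 eye and forebrain markers went the other way, with 21.4, 153 and 142 CPM. Replicate 3 stood apart in the 5 markers of pigment epithelium, which summed to 2.41, 12.8 and 98.2 CPM, 4 of them at least 2-fold higher there than in either other library. Replicate 1 was also the only library with high *Xist* counts (25915, against 11 and 21), and it had no counts of the Y-linked genes *Ddx3y*, *Eif2s3y*, *Kdm5d* and *Uty*. In bulk tissue, fewer cells of a type and less RNA per cell cannot be told apart.

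All 8 genes were expressed in all 3 libraries, and the receptors had on the median a wider range between libraries than the ligands. The ratio of the highest to the lowest library had a median of 1.60 over the ligands and 4.06 over the receptors, beside 1.70 over all genes tested. The receptor median lay between *Ngfr* (2.19-fold) and *Ntrk2* (2.22-fold) below it and *Ntrk3* (5.89-fold) and *Ret* (15.6-fold) above. The ligand *Gdnf*, at 2.30-fold, had a wider range than *Ngfr* and *Ntrk2*. Without replicate 1 the medians of ligands and receptors were 1.075 and 1.61, and without replicate 2 they were 1.52 and 2.72. Each gene differed between libraries by more than counting noise, 8 of 8 genes (chi-square test of the counts against scaled library sizes, Benjamini-Hochberg adjusted over 17115 genes). This was also true of 81.5% of all genes tested, so the count of 8 is near the background. A range of at least 2-fold was reached by 5 of 8 genes, beside 34.8% of all genes tested. These 5 were *Gdnf* and all 4 receptors, of which *Ngfr* fell short at 1.95-fold when libraries were scaled by total counts. *Ntrk3* and *Gdnf* were at least 2-fold higher in replicate 1 than in each other library, as were 2.33% of all genes. With total counts *Ntrk2* joined them, giving 3 genes. *Ret* was at least 2-fold higher in replicate 2, as were 0.374% of all genes. No gene of the set was so in replicate 3, where 8.27% of all genes were.

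**Figure D1:**
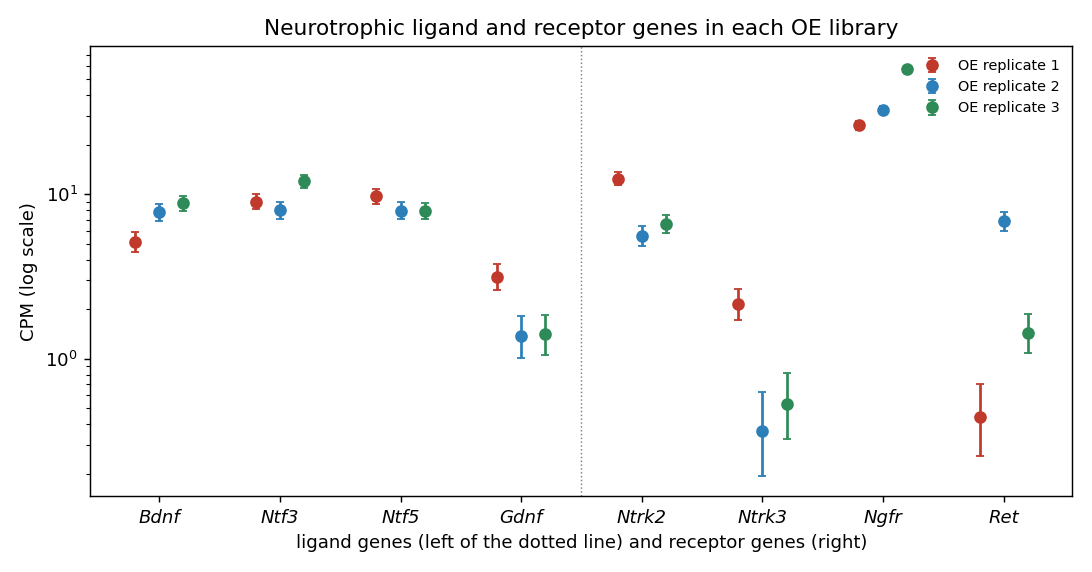
CPM of the 4 ligand and 4 receptor genes on a log scale in OE replicates 1 (red), 2 (blue) and 3 (green), with 95% Poisson intervals that cover counting error only. The 3 neurotrophin ligands stayed between 5.16 and 12.0 CPM in every library, whereas *Ret* spanned 0.441 to 6.86 CPM and *Ntrk3* 0.365 to 2.15 CPM.

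Among the ligands, *Bdnf* (ENSMUSG00000048482, chromosome 2, 109674700 to 109727007) encodes brain-derived neurotrophic factor. It had 199, 278 and 332 counts in replicates 1, 2 and 3, or 5.16, 7.81 and 8.81 CPM. Replicate 1 was the lowest library and replicates 2 and 3 lay close together. The range was 1.71-fold (adjusted p = 1.25e-08, chi-square test), and without replicate 1 it was 1.13-fold. The difference between replicates 2 and 3 was within counting noise (exact binomial test, adjusted p = 0.190). Of the exonic bases of *Bdnf*, 14.4% overlapped the antisense gene *Gm45346*, which had 0 counts in all 3 libraries. The strand setting of the counting is not given, and reads on the shared bases may have been assigned to neither gene. The 0 counts therefore do not by themselves show that *Gm45346* was silent. The other 7 genes shared no exonic base with another annotated gene.

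*Ntf3* (ENSMUSG00000049107, chromosome 6, 126101412 to 126166910) encodes neurotrophin-3, which proprioceptive and other early sensory neurons require. Its counts were 348, 285 and 452, or 9.02, 8.01 and 12.0 CPM. Replicate 3 was the highest library, with a 1.50-fold range (adjusted p = 1.31e-07, chi-square test), and replicates 1 and 2 were within counting noise of each other (exact binomial test, adjusted p = 0.239). Short genes as a class were higher in replicate 3. Over the 3886 genes with merged exons of up to 2000 bases, the class of *Ntf3*, the median log2 difference of replicate 3 from the mean of the others was 0.64, and that of *Ntf3* was 0.495, below its class. *Ntf5* (ENSMUSG00000074121, chromosome 7, 45413695 to 45417179) encodes neurotrophin-4. It had 376, 283 and 298 counts, or 9.74, 7.95 and 7.91 CPM. This was the narrowest range of the 8 genes at 1.23-fold (adjusted p = 1.03e-02, chi-square test), and 16.7% of all genes tested had a narrower one. Replicate 1 was slightly the highest, and replicates 2 and 3 were alike in value.

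*Gdnf* (ENSMUSG00000022144, chromosome 15, 7810846 to 7837575) encodes glial cell line-derived neurotrophic factor, known for its roles in enteric neurons and kidney. It was the lowest of the ligands, with 122, 49 and 53 counts or 3.16, 1.38 and 1.41 CPM. Replicate 1 alone was high, by 2.25-fold over the next library, and the range was 2.30-fold (adjusted p = 5.07e-09, chi-square test). Without replicate 1 the mean was 1.39 CPM in place of 1.98, and the range was 1.02-fold.

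Among the receptors, *Ntrk2* (ENSMUSG00000055254, chromosome 13, 58806569 to 59133970) encodes TrkB. It had 480, 199 and 250 counts, or 12.4, 5.59 and 6.64 CPM. Replicate 1 was the highest library, 1.87-fold above replicate 3, and replicates 2 and 3 were within counting noise of each other (exact binomial test, adjusted p = 0.106). The range over the 3 libraries was 2.22-fold (adjusted p = 4.56e-27, chi-square test), and 1.19-fold without replicate 1. Long genes were on the median higher in replicate 1, with a log2 difference from the mean of the others of 0.40 over the 2600 genes above 8000 bases of merged exons, the class of *Ntrk2* and *Ntrk3*, against −0.45 over the genes of up to 2000 bases. The difference was 1.02 for *Ntrk2* and 2.26 for *Ntrk3*. The counts do not separate the full-length kinase form of TrkB from the truncated forms, since 10 annotated transcripts are summed in 1 gene.

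*Ntrk3* (ENSMUSG00000059146, chromosome 7, 78175959 to 78738012) encodes TrkC and had the lowest mean of the 8 genes over the 3 libraries, though *Ret* was lower in replicate 1. Its 83 counts in replicate 1 corresponded to 2.15 CPM (95% Poisson interval 1.71 to 2.67), against 13 counts or 0.365 CPM (0.195 to 0.625) in replicate 2 and 20 counts or 0.531 CPM (0.324 to 0.820) in replicate 3. The interval of replicate 1 did not meet those of the other two libraries, which overlapped each other. The range was 5.89-fold (adjusted p = 9.35e-16, chi-square test), wider than that of 95.8% of genes tested, and fell to 1.45-fold without replicate 1. The mean without replicate 1 was 0.448 CPM, in place of 1.02 CPM with it. Without replicate 2 the mean of *Ntrk3*, 1.34 CPM, was above that of *Ret*.

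*Ngfr* (ENSMUSG00000000120, chromosome 11, 95568818 to 95587735) encodes p75 and was the most abundant gene of the set. It had 1014, 1158 and 2163 counts, or 26.3, 32.5 and 57.4 CPM. Replicate 3 was the high library and replicate 1 the low one, the opposite order to *Ntrk2* and *Ntrk3* for replicate 1. The range was 2.19-fold (adjusted p = 9.60e-115, chi-square test), and 1.24-fold without replicate 3. Gene length moved with the library here too. Over the 4940 genes with merged exons of 2000 to 4000 bases, the class of *Ngfr*, its median log2 difference from the mean of the other libraries was 0.16, and over the 2600 genes above 8000 bases, the class of *Ntrk2* and *Ntrk3*, it was −0.56. The log2 difference of *Ngfr* itself was 0.97. *Bdnf*, *Ntf3* and *Ngfr* were highest in the library with the high pigment epithelium markers. The part of gene length or of pigment epithelium in the values of these genes was not tested.

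*Ret* (ENSMUSG00000030110, chromosome 6, 118151745 to 118197718) encodes the kinase shared by all ligands of the GDNF family. It had 17 counts in replicate 1, 244 in replicate 2 and 54 in replicate 3, which gave 0.441 CPM (95% Poisson interval 0.257 to 0.705), 6.86 CPM (6.02 to 7.77) and 1.43 CPM (1.08 to 1.87). No pair of these intervals overlapped. The range of 15.6-fold (adjusted p = 3.90e-67, chi-square test) was wider than that of 98.6% of genes tested. Replicate 2 was 4.78-fold above the next library. By this measure *Ret* stood at place 1 of 17115 genes for a library of replicate 2 above both others, ahead of *Amd2* at 4.30-fold and *Tubb1* at 4.15-fold, a pair named after their values were seen. Without replicate 2 the mean of *Ret* was 0.937 CPM in place of 2.91 CPM, and the range was 3.25-fold.

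**Figure D2:**
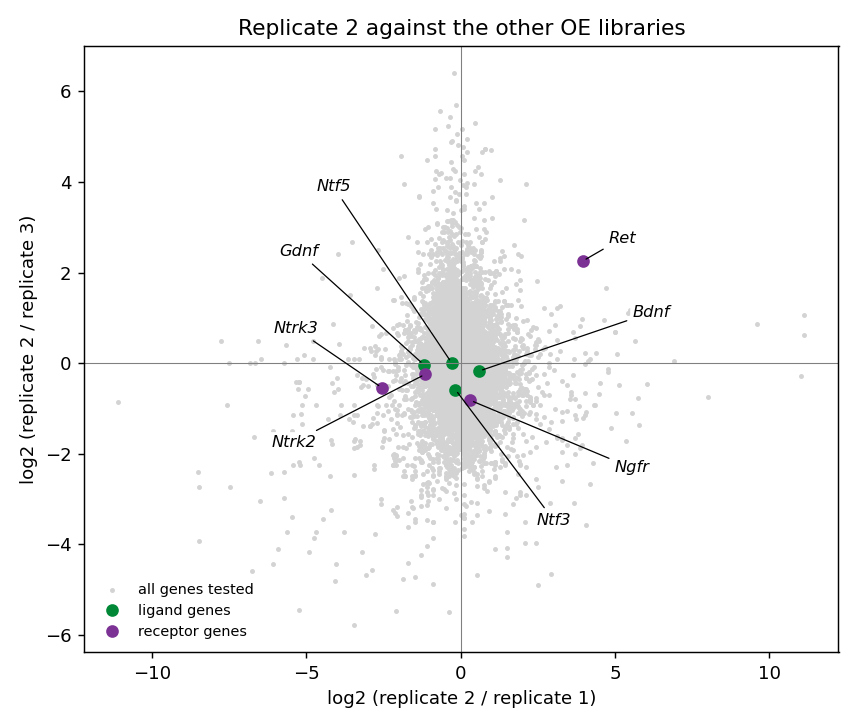
Log2 ratio of replicate 2 to replicate 1 (x axis) and to replicate 3 (y axis) for the 17115 genes tested (grey), the ligands (green) and the receptors (purple), with genes at 0 drawn at a small positive value. *Ret* lies to the upper right, 4.78-fold higher in replicate 2 than in the next library, while *Ntrk2*, *Ntrk3* and *Gdnf* lie to the left because replicate 1 was higher.

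*Ntrk2*, *Ntrk3*, *Gdnf* and, by a smaller difference, *Ntf5* were highest in the library with the high neuronal markers, and *Ret*, *Ngfr* and *Bdnf* were lowest there. The log2 difference of replicate 1 from the mean of the others was, beside those of the Trk receptors, 1.18 for *Gdnf*, 0.30 for *Ntf5*, −0.15 for *Ntf3*, −0.69 for *Bdnf*, −0.78 for *Ngfr* and −3.23 for *Ret*. The neuronal list contained *Tubb3*, a neuronal tubulin, at 115, 7.64 and 16.9 CPM, and *Pou4f1*, a transcription factor of sensory neurons, at 16.7, 0.927 and 1.25 CPM. Among the 10 markers of sensory ganglion neurons, 8 were highest in replicate 1, 6 of them by at least 2-fold, and the list summed to 283, 137 and 107 CPM. *Runx3*, which marks TrkC-bearing proprioceptive neurons, was nearly absent with 2, 1 and 5 counts, and *Scn9a* had no count in replicate 3.

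The 7 glial markers summed to 98.2, 25.2 and 26.4 CPM, and 5 of them were at least 2-fold higher in replicate 1. *Sox10*, the regulator of neural crest and glial identity, was at 37.2, 5.65 and 7.94 CPM, whereas *S100b*, a marker of later glia, had 0, 0 and 1 counts. *Ngfr* did not have the order of the glial list, since it was lowest where the list was highest. The 6 eye and forebrain markers were lowest in replicate 1, as *Ret* was. Their sum was close in replicates 2 and 3, though single markers differed (*Rax* was at 12.6 and 21.5 CPM), while *Ret* differed 4.78-fold between these. The 6 markers of surface and oral epithelium summed to 340.5, 223 and 224 CPM, also highest in replicate 1, with 4 of the 6 highest there. The 5 endothelial markers summed to 243, 265 and 178 CPM. The part of neurons, glia, epithelium, endothelium or eye tissue in the differences between libraries was not tested.

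**Figure D3:**
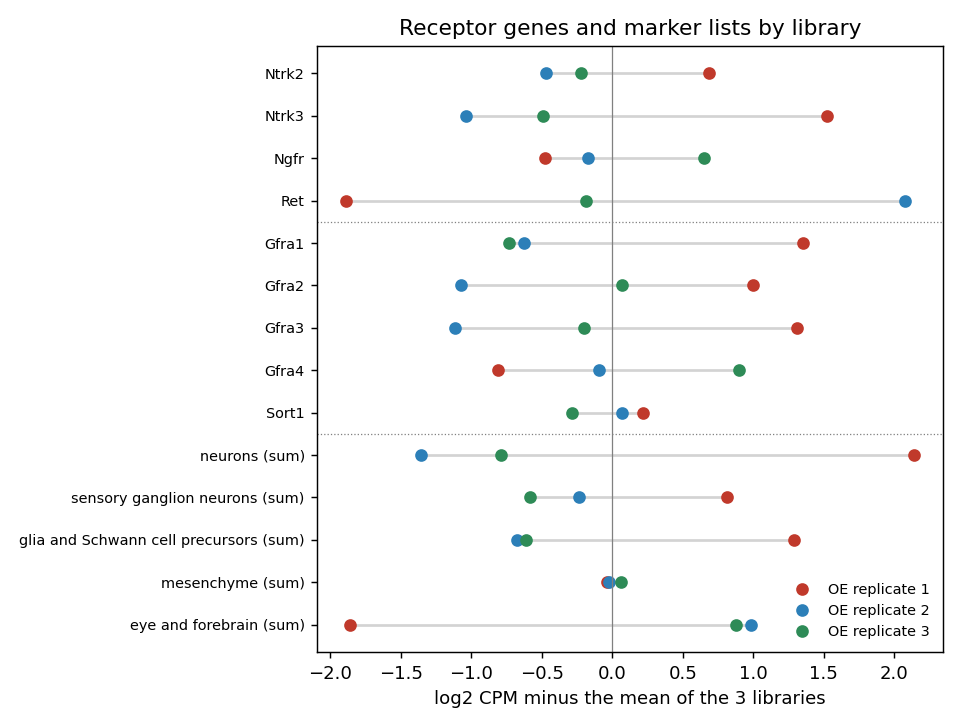
Log2 CPM of each library minus the mean of the 3 libraries, for the 4 receptor genes, for co-receptors, and for the summed CPM of 5 marker lists. Replicate 1 (red) lies to the right for *Ntrk2*, *Ntrk3*, *Gfra1*, *Gfra2*, *Gfra3* and the neuronal and glial lists, and to the left for *Ngfr*, *Ret*, *Gfra4* and the eye and forebrain list.

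An estimate of the relative spread between libraries beyond counting noise, the biological coefficient of variation (BCV), was also computed. Each value was drawn towards those of genes of similar level, so it is not the spread of that gene alone. For *Ntf5*, the SD of the CPM was 12.3% of its mean, below its BCV of 0.293. The BCV had a median of 0.366 over the 8 genes and 0.339 over all genes tested. It was 0.837 for *Ret* and 0.691 for *Ntrk3*, above 98.7% and 96.9% of genes tested. Without replicate 1 the BCV of *Ret* was 0.381 and that of *Ntrk3* 0.501, with the median over all genes at 0.317. *Ret* still differed 4.78-fold between replicates 2 and 3. With all libraries the BCV was 0.474 for *Gdnf* and 0.391 for *Ntrk2*. The others lay between 0.293 for *Ntf5* and 0.341 for *Bdnf* and *Ngfr*. Closeness of these values to the median gene is partly built in, because each was drawn towards other genes. Without replicate 3 *Ngfr* was at 0.159, and the median over all genes tested was at 0.209. Without replicate 2 *Ntf5* was at 0.477 and *Ntf3* at 0.464, with the median over all genes at 0.444.

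Levels of different genes were compared per length, as CPM divided by the kilobases of merged exons (FPKM). The order was *Ngfr* at 11.2 ± 4.78 FPKM (mean ± SD, n = 3), *Ntf3* at 5.64 ± 1.21, *Ntf5* at 3.22 ± 0.394, *Bdnf* at 1.17 ± 0.304, *Gdnf* at 0.539 ± 0.278, *Ret* at 0.430 ± 0.511, *Ntrk2* at 0.426 ± 0.191 and *Ntrk3* at 0.0337 ± 0.0327 FPKM. The median over the ligands was 2.19 FPKM and that over the receptors was 0.428 FPKM. Of the 7 pairs of neighbours in this order, 4 had ranges over the libraries that did not overlap. These were *Ngfr* and *Ntf3*, *Ntf3* and *Ntf5*, *Ntf5* and *Bdnf*, and *Ntrk2* and *Ntrk3*. *Bdnf* and *Gdnf*, *Gdnf* and *Ret*, and *Ret* and *Ntrk2* overlapped. A sign-flip permutation test over 3 libraries cannot give an exact p below 0.25, and all 4 separate pairs had this value. With the length of the longest transcript, *Ntrk2* was at 0.940 FPKM and moved above *Gdnf* and *Ret*, and 2 pairs of neighbours did not overlap. *Ntrk2* and *Ntrk3* are the longest genes of the set, with 19292 and 30170 bases of merged exons, of which the longest transcripts hold 8744 and 19703.

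**Figure D4:**
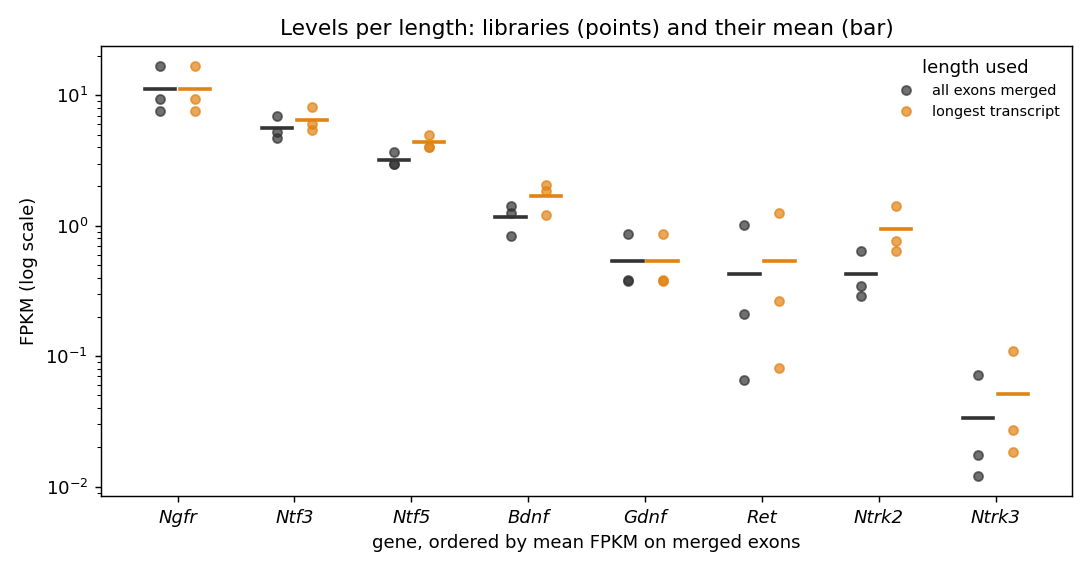
FPKM of the 8 genes on a log scale, with points for the 3 libraries and a bar for their mean, on merged exons (black) and on the longest transcript (orange). *Ngfr*, *Ntf3* and *Ntf5* stand in this order in each library on merged exons, from 11.2 to 3.22 FPKM on average, and *Ntrk3* has the lowest mean at 0.0337 FPKM.

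Each ligand was set against the receptor it binds, per length and within each library. *Ntrk2* amounted to 0.143, 0.0681 and 0.0782 of the sum of *Bdnf* and *Ntf5* in replicates 1, 2 and 3, so the ligands exceeded the receptor in every library. With the longest transcript these ratios were 0.231, 0.109 and 0.1245. *Ntrk3* amounted to 0.0136, 0.00259 and 0.00251 of *Ntf3*, the widest gap between a ligand and its receptor. Replicate 1 had the highest ratio in both cases. The ratio of *Ret* to *Gdnf* was 0.0757, 2.71 and 0.554, so that the ligand was higher in replicates 1 and 3 and the receptor in replicate 2. *Ngfr* exceeded the sum of *Ntrk2* and *Ntrk3* by 10.7-fold, 31.3-fold and 46.1-fold, and by 4.98-fold, 14.35-fold and 21.2-fold with the longest transcript. Summed over the set, receptors were 0.791, 1.16 and 1.46 of the ligands, a mean log2 ratio of 0.14 ± 0.447 (SD, n = 3), with an SD larger than the mean. The sign of this mean was not stable, at −0.09 with the longest transcript and −0.06 without replicate 3. Without *Ngfr*, the receptors were 0.0735, 0.142 and 0.0487 of the ligands.

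A wider list of 27 genes of the same pathways was counted above 3 counts in every library, 27 of 27. Of these genes, 24 differed between libraries by more than counting noise, 14 were highest in replicate 1, 2 in replicate 2 and 11 in replicate 3. Over all genes tested, 81.5% differed by more than counting noise, and 39.6%, 17.2% and 43.2% were highest in replicates 1, 2 and 3, so the count of 24 is near the background. The other GDNF family ligands differed among themselves. *Nrtn* was at 4.28, 6.18 and 14.4 CPM and *Pspn* at 0.518, 0.843 and 1.54 CPM, both highest in replicate 3, whereas *Artn* at 1.35, 1.57 and 1.14 CPM stayed within counting noise (adjusted p = 0.308, chi-square test). The convertases that cleave such precursors were all present, with *Furin* at 58.1, 54.1 and 41.9 CPM, *Pcsk5* at 12.9, 14.4 and 13.6 CPM and *Pcsk6* at 6.40, 4.58 and 3.42 CPM.

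All 9 further receptors and co-receptors differed by more than counting noise, beside the same 81.5% of all genes. The co-receptors of RET did not share the order of *Ret*. *Gfra1*, the preferred co-receptor of GDNF, was at 6.87, 1.74 and 1.62 CPM, *Gfra2* at 3.52, 0.843 and 1.86 CPM and *Gfra3* at 0.907, 0.169 and 0.319 CPM. All 3 were highest in replicate 1, where *Ret* was lowest. *Gfra4*, the co-receptor of persephin, was lowest there, at 2.38, 3.91 and 7.78 CPM. The partners of p75 lay in a narrower range. *Sort1*, encoding the sortilin that binds precursors together with p75, was at 59.3, 53.7 and 41.8 CPM. *Lingo1* was at 2.41, 3.79 and 4.12 CPM and *Rtn4r*, the Nogo receptor, at 1.06, 1.29 and 2.47 CPM, both with the order of *Ngfr*. *Ncam1*, an adhesion molecule that also binds GDNF, was at 12.4, 9.92 and 16.9 CPM. The 11 intracellular partners ran from *Dok4*, an adaptor, at 16.3, 17.7 and 18.1 CPM, to *Maged1*, which binds p75, at 623, 655 and 865 CPM. None of them was 2-fold higher in 1 library than in each other one.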

How the data were processed

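Counts of poly-A selected RNA, 150-base paired-end reads, were deposited by the authors as whole numbers per gene, not normalized. Mapping used STAR 2.7.3a on mm10. HTSeq 0.12.4 and FastQC are named in the submitters' processing notes. Strand setting and annotation release are not given in the sources used here, and the kit does not mark strand. Rows naming no gene (14.2% to 16.4% of counted reads) were left out. Of 55401 identifiers, 55141 matched GENCODE M21 (GRCm38).

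CPM used TMM factors from edgeR 4.0.16, and BCV an intercept-only edgeR model. A gene entered the tests when its counts averaged 10 or more over the libraries. The chi-square and exact binomial tests compare libraries with counting error, not conditions. Adjusted p-values are Benjamini-Hochberg over all genes tested, threshold 0.05. For distances between profiles, 2 counts were added before taking log2 CPM. FPKM was computed from CPM and exon length. DESeq2 1.42.0 size factors and dispersions, total counts, other filters, the longest transcript and leaving out each replicate were alternatives. In simulated data with counting noise only, 200 of 17115 genes changed 4-fold in 1 library were recovered at 100%, with 0.0532% of unchanged genes called. Unchanged genes had no other variation between the simulated libraries, so these shares do not describe the real data. R 4.3.3, Python 3.11.15, scipy 1.17.1, pandas 2.3.3 and matplotlib 3.10.9 were used.

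The members and lists were chosen with earlier results of these data known. Named were all 8 genes, every ligand and receptor of the wider list, its lowest and highest intracellular partner, the 3 protein-coding genes nearest to each member (mean counts from 100 upwards), and *Dlx2*. A few genes that this rule names are not reported here. Other genes named come from the marker lists or stand beside a result.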

Additional observations from a re-analysis of the deposited data

How the results depend on the processing

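Of 159 values recomputed for 32 results, 142 stayed within the spread between libraries or within 1.5 times the count, and 17 moved further. Changes of sign were not scored. The mean receptor to ligand log2 ratio changed sign within its spread. It was 0.14, against −0.09 with the longest transcript and −0.06 without replicate 3. Leaving out each replicate in turn gave 3 to 8 genes beyond counting noise and 1 to 4 with a 2-fold range. The low end was without replicate 1 in both cases, when the genes beyond counting noise were *Ntf3*, *Ngfr* and *Ret*, the only gene with a 2-fold range was *Ret*, and the shares of all genes were 71.2% and 18.3%. Without replicate 2 there were 8 and 4 genes, beside 77.7% and 31.2% of all genes, and without replicate 3 there were 7 and 4, beside 48.8% and 7.24%. With the longest transcript, 2 pairs of neighbours in the order of levels did not overlap, in place of 4, total counts gave 3 and leaving out a replicate gave 4 to 6. Total counts also gave 4 genes with a 2-fold range, beside 36.7% of all genes. The highest library of each gene was the same under TMM, DESeq2 and total-count scaling, and the lowest changed only for *Ntf5* and *Gdnf*, whose lower 2 libraries were close. No paired analysis was possible because all libraries belong to 1 group. *Ntrk3* in replicates 2 and 3 and *Ret* in replicate 1, with 13 to 20 counts, are the values that depth limits most. Levels below 0.0843 CPM could not be told from 0. Intervals cover counting error only, and *Ntrk2* and *Ntrk3* depend on the gene model used for length.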

Other observations

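The genes with profiles most like each member were found by Euclidean distance over the 3 libraries between centred log2 CPM, among 11279 protein-coding genes whose counts averaged 100 or more. With 3 points per profile many genes lie close to a common one, so these names are a description. Within a distance of 0.25 lay 417 genes for *Bdnf*, 1026 for *Ntf3*, 1801 for *Ntf5*, 1215 for *Ngfr*, 31 for *Ntrk2* and 0 for *Ret*. The nearest to *Ntrk2* were *Kif5a*, a neuronal kinesin, at 0.0628, then *Kcne1l* and *Krt7*. Among the 3 nearest to *Ret* were *Six3* at 1.33 and *Emx2* at 1.35, homeobox genes of the forebrain. *Six3* was at 4.02, 26.9 and 21.1 CPM in replicates 1, 2 and 3, so its values in replicates 2 and 3 were closer to each other than those of *Ret*. The 3 nearest were *Cdhr4*, *Ptp4a3* and *Hes1* for *Bdnf*, *Tmem63a*, *Gap43* and *Sp7* for *Ntf3*, *Ndrg4*, *Mtx3* and *Tgfb1i1* for *Ntf5*, and *Wdr86*, *Ndufs3* and *Babam1* for *Ngfr*. With a prior count of 0.5 in place of 2, 17 of the 18 nearest genes stayed. *Gdnf* and *Ntrk3* had mean counts under 100 and were not compared.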
